A study of Canis lupus familiaris with 29 samples.

Results

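Lymph nodes of dogs given valspodar were compared with those of dogs given placebo on Day 4 of treatment, in 9 valspodar and 5 placebo libraries out of 29 in the series. The libraries were chosen by their labels, as those taken after treatment, and each came from a different dog. For each gene with a symbol or identifier, the values of the same 14 dogs at Day 0, before treatment, or the difference between arms at Day 0, are given beside Day 4. The labels give the disease as newly diagnosed diffuse large B-cell lymphoma, and the trial also admitted marginal zone lymphoma in transition. The dogs were pets of several breeds, randomized at 3 trial sites. They received capsules of valspodar at 7.5 mg/kg by mouth, or placebo, 2 times a day, and were biopsied again on day 4 of dosing, before doxorubicin. The valspodar dogs were aged 3.8 to 11.6 years, and 5 came from the Minnesota site, 1 from Pennsylvania and 3 from Purdue, with 4 Golden Retrievers. The placebo dogs were aged 5.3 to 10.4 years, with 1 age not given, and 3 came from Minnesota and 2 from Pennsylvania. Of them, 0 were labelled Golden Retrievers, and 1 breed was not given (PENN04). There were 4 females and 5 males in the valspodar group and 3 females, 1 male and 1 dog of unstated sex in the placebo group. Tissue was taken as an incisional wedge at Day 0 and with a tru-cut needle at Day 4 in both arms, so day and biopsy method cannot be told apart, whereas the arms were sampled alike on each day.

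Valspodar is a non-immunosuppressive derivative of cyclosporine that blocks ABCB1, the P-glycoprotein pump. ABCB1 sits in the plasma membrane and uses ATP to export hydrophobic compounds, doxorubicin among them, and its expression by lymphoma cells is a known route to drug resistance. A blocker of this kind acts on the protein, so a comparison of RNA asks what else differs in the nodes of treated dogs. Whole lymph node RNA holds lymphoma cells together with macrophages, neutrophils and stroma, and in such bulk tissue fewer cells of a type and less RNA per cell cannot be told apart.

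Expression was measured by RNA sequencing and given per gene as FPKM, the sequenced fragments scaled to gene length and library depth. Values were tested with limma on log2(FPKM + 1), over 11677 genes (mean FPKM of 1 or more), and differences are valspodar minus placebo on that log2 scale. Only 23 of the genes tested could be given a symbol. ABCB1, ABCG2, CD34, KIT, CD22 and the other B cell genes were not analysed here, so the lymphoma label was not checked against B cell markers. Relative to the median library, depth at Day 4 was 0.288 for valspodar dog MN02 and from 0.863 to 1.64 for the other dogs. The 10 most abundant genes took from 9.86% to 40.6% of the summed FPKM at Day 4, the highest share being that of placebo dog PENN04.

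At Day 4 the RNA profiles of the 2 arms differed in 1 gene. ENSCAFG00000011417 was lower in the valspodar dogs, and it was just as low in them before the first dose. No other gene passed an adjusted p of 0.05, and the next smallest adjusted p by limma was 0.867. The 1 call is 0.00856% of the 11677 genes tested.

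ENSCAFG00000011417 is an Ensembl dog gene for which no symbol was found. At Day 4 it stood at 141 FPKM in placebo dog MN05, 165 in MN08, 210.4 in MN09, 308 in PENN04 and 167 in PENN05. In the 9 valspodar dogs it ranged from 2.42 to 5.37 FPKM, with a median of 4.06. The arms were thus far apart, and every placebo dog was above every valspodar dog. The mean was 198 ± 66.2 FPKM with placebo (SD, n = 5) and 3.87 ± 0.988 with valspodar (SD, n = 9), a ratio of 51.3. The log2 difference was -5.33 (95% interval -5.74 to -4.91), with an adjusted p of 1.215e-09 by limma.

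The Day 0 values of ENSCAFG00000011417 in these dogs had the same 2 levels. The placebo dogs held 137 FPKM (MN05), 184 (MN08), 163 (MN09), 375 (PENN04) and 171 (PENN05) before treatment, and the valspodar dogs held 2.63 to 4.78. The Day 0 log2 difference was -5.32 (95% interval -5.76 to -4.89), with an adjusted p of 4.379e-09 by limma. Each dog stayed at its own level, with 2 of 5 placebo and 3 of 9 valspodar dogs higher at Day 4 than at Day 0. The difference of the changes from Day 0 to Day 4 was -0.0045 (95% interval -0.58 to 0.57), with an adjusted p of 1 by limma without a dog term. With the dog as a block the interval was -0.32 to 0.31. Placebo dog PD04, which has a Day 0 library only, held 4.95 FPKM, near the valspodar dogs and below the other 5 placebo dogs. With PD04 included, the Day 0 difference was -4.49 with an adjusted p of 0.0717. Within the 3 placebo and 5 valspodar dogs of the Minnesota site, the Day 4 difference was -5.30, and the gene was again the 1 call.

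**Figure D1:**
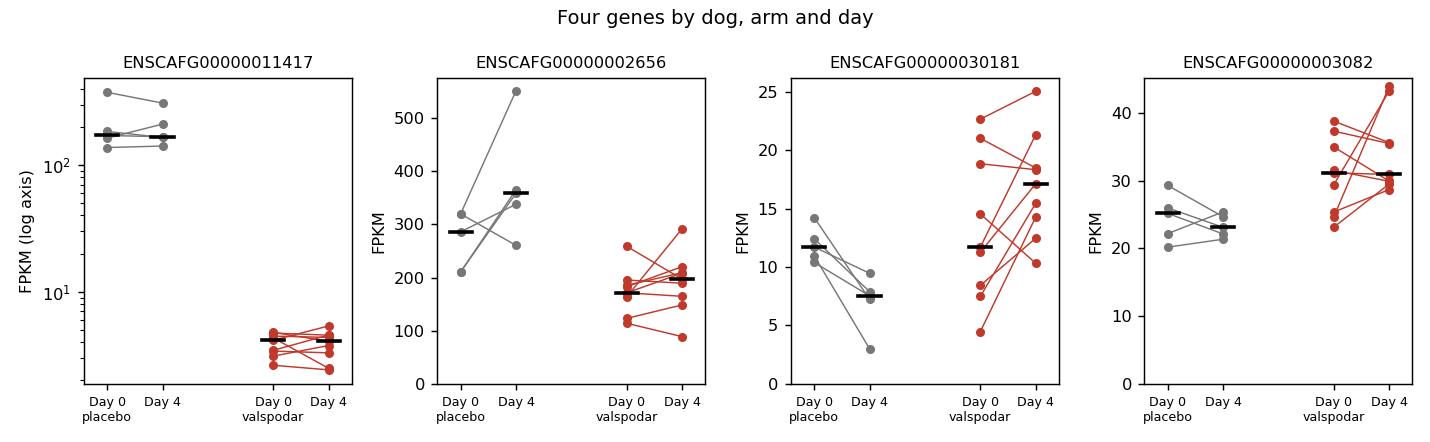
FPKM of 4 genes in each of the 14 dogs at Day 0 and Day 4 (placebo, grey, n = 5; valspodar, red, n = 9); lines join the libraries of a dog and black bars are medians. ENSCAFG00000011417 (log axis) holds 2 levels on both days, whereas ENSCAFG00000030181 fell in 5 of 5 placebo dogs and separates the arms at Day 4 and not at Day 0.

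Below the adjusted threshold, the genes were described by counts. At Day 4, 485 genes had an unadjusted p under 0.05 (4.15%), of which 188 were higher (1.61%) and 297 lower (2.54%) with valspodar. Without the dogs labelled Golden Retriever, which at Day 4 were in the valspodar arm only, the split turned to 288 higher and 242 lower. Placebo dog PENN04, of unstated breed, was kept in that fit. Without placebo dog MN09 the count was 332, with 143 higher and 189 lower. The same dogs had 453 such genes at Day 0 (3.88%), before any drug was given. The Day 0 count was 291 without Golden Retrievers and 708 in the Minnesota dogs, beside 530 and 475 at Day 4. The sizes at Day 4 were small, with a median absolute log2 difference of 0.145 over all genes and a 95th percentile of 0.613. The 95% interval lay between -1 and 1 for 80.7% of genes, so for those genes a difference of more than 2-fold in FPKM + 1 lay outside the interval. The typical half-width of the interval was 0.427.

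Of the 485 genes, 143 also had an unadjusted p under 0.05 in the same direction at Day 0, namely 30 higher and 113 lower. A further 312 had the same direction without passing, and 30 had the other direction. In 273 genes the Day 0 difference was at least 50% of that at Day 4. The median Day 4 difference of the 485 was 0.420 in absolute size, beside a Day 0 difference in the same direction of 0.236. Both days come from the same dogs, whose levels persist from day to day, and 71.7% of all genes tested had the same sign on both days. The change from Day 0 to Day 4 differed between arms in 17 of the 485 at an unadjusted p below 0.05, or in 78 once a term for each dog was added. The 485 were chosen by their Day 4 values, which enter that change, so an excess among them is built in. Over all genes the shares were 0.368%, and 3.67% with the dog term.

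**Figure D2:**
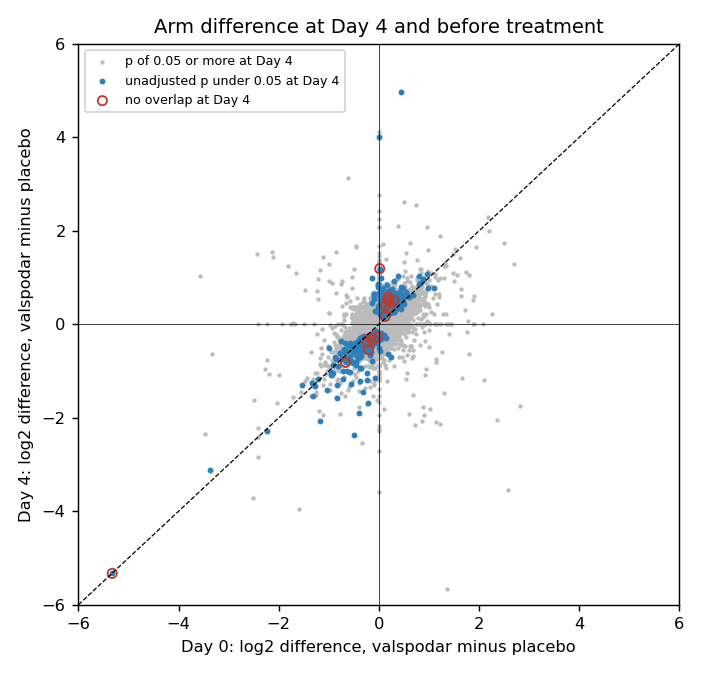
Log2 difference between arms (valspodar minus placebo) of 11677 genes at Day 4 (vertical axis) against Day 0 in the same 14 dogs (horizontal axis); the dashed line marks equal differences. The 485 genes with an unadjusted p under 0.05 at Day 4 (blue) mostly share their sign with Day 0, and ENSCAFG00000011417 lies on the line near -5.3.

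The difference of the changes was then tested for every gene, since it sets the on-treatment change of one arm against that of the other. No gene passed, with a smallest adjusted p of 1 by limma, and 43 genes were below 0.05 before adjustment (0.368%). A fit with dog as replicate block put 428 genes there (3.67%), and its smallest adjusted p was 0.999. Of the 43 genes, 28 were higher (0.24%) and 15 lower (0.128%) with valspodar. The block turned this split to 178 higher (1.52%) and 250 lower (2.14%), and leaving out placebo dog PENN05 turned it to 11 higher and 26 lower. The 95% interval of this difference lay between -1 and 1 for 73.3% of genes, and for 88.6% with the block.

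At Day 0 the same dogs had differences of more than 1 on the log2 scale in 150 of the 11677 genes tested. Of these, 72 were higher and 78 lower, and 24 had an unadjusted p under 0.05 by limma. At Day 4 such differences were found in 216 genes, 93 higher and 123 lower, and 33 of them had an unadjusted p under 0.05. Of these 33, 26 were lower with valspodar, and all 26 were lower at Day 0 too, 10 of them by more than 1. The other 7 were higher, and 6 of them were higher at Day 0, none by more than 1. In 10 of the 26 and 2 of the 7, at least 1 Day 4 library was listed at 0 FPKM.

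Both of the largest higher differences belonged to genes without a symbol that were listed at 0 in placebo dogs. The first was listed at 0 in 3 of 5 placebo dogs at Day 4 and held 274 and 939 FPKM in the other 2, whereas the 9 valspodar dogs held 67.3 to 3216. At Day 0 it was listed at 0 in 1 of 5 placebo dogs and ranged from 409 to 1595 in the other 4. The second was listed at 0 in every library of both arms at Day 0 and in 5 of 5 placebo dogs at Day 4, and held 34.5 to 95.3 FPKM in 6 of 9 valspodar dogs at Day 4. In each gene the arms overlapped at Day 4, and the adjusted p by limma was 0.997. A listed 0 can be a failed estimate, and no fold change is given.

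In 15 genes the arms did not overlap at Day 4 (0.128% of genes tested), with 8 higher (0.0685%) and 7 lower (0.0599%) in the valspodar dogs. At Day 0 the arms did not overlap in 6 genes (0.0514%), and ENSCAFG00000011417 was the 1 gene in both sets. Without it, the 8 higher genes differed by 0.17 to 1.19 at Day 4 and by 0.02 to 0.30 at Day 0, with medians of 0.50 and 0.18. The 6 lower genes differed by -0.81 to -0.27 at Day 4 and by -0.66 to -0.02 at Day 0, with medians of -0.35 and -0.18. All 14 had the Day 4 direction at Day 0, as had 71.7% of all genes tested. At Day 0 only 1 of the 8 higher and 1 of the 6 lower genes had an unadjusted p under 0.05 by limma. In 6 of the 14, 3 in each direction, the Day 0 difference was at least 50% of that at Day 4. The change from Day 0 was below 0.05 before adjustment in 2 of the 8 higher and 0 of the 6 lower genes, and in 4 and 2 with the dog block. These genes were chosen by their Day 4 values, which enter that change, and over all genes the shares were 0.368% and 3.67%. Within the Minnesota dogs 384 genes (3.29%) did not overlap at Day 4 and 411 at Day 0, 88 of them in the same direction on both days. Fewer dogs make a lack of overlap easier.

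**Figure D3:**
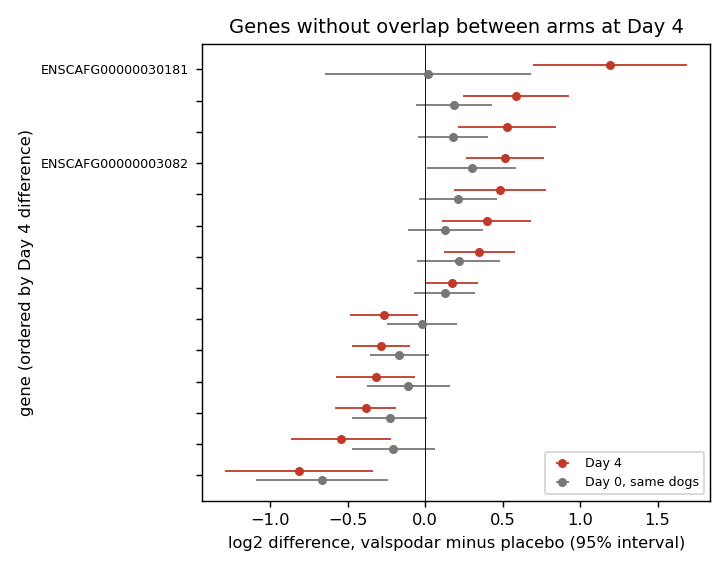
Log2 difference between arms at Day 4 (red) and at Day 0 in the same dogs (grey), with 95% intervals from limma, for the 14 genes other than ENSCAFG00000011417 whose arms did not overlap at Day 4. All 14 Day 0 differences have the sign of Day 4, but most of their intervals span 0, and that of ENSCAFG00000030181 is near 0.

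ENSCAFG00000030181, which has no symbol here, had the largest of these higher differences and the least difference at Day 0. At Day 4 it stood at 7.24 FPKM in MN05, 7.53 in MN08, 2.999 in MN09, 7.90 in PENN04 and 9.47 in PENN05, and in the valspodar dogs at 10.3 to 25.1 with a median of 17.1. At Day 0 the placebo dogs had held 10.4 to 14.3 FPKM and the valspodar dogs 4.46 to 22.7, so that the placebo range lay inside the valspodar range. Its level fell in 5 of 5 placebo dogs and rose in 6 of 9 valspodar dogs, by means of -0.75 and 0.42 on the log2 scale. The Day 4 difference was 1.19 (95% interval 0.69 to 1.69) and the Day 0 difference 0.02 (-0.64 to 0.68). The difference of the changes was 1.18 (0.37 to 1.98, or 0.54 to 1.81 with the dog as a block). The adjusted p by limma was 0.867 at Day 4 and 1 for the changes, or 0.999 with the dog as a block, so the pattern did not pass the test. Without MN09, whose Day 4 value was the lowest, the Day 4 difference was 0.96.

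ENSCAFG00000003082 was the gene with the next smallest p among the higher ones. It ranged from 21.4 to 25.4 FPKM in the placebo dogs at Day 4 and from 28.7 to 43.9 in the valspodar dogs, without overlap. The means were 23.3 ± 1.69 FPKM (SD, n = 5) and 34.1 ± 5.92 (SD, n = 9). At Day 0 the ranges were 20.2 to 29.3 and 23.1 to 38.8 and overlapped. The Day 4 difference was 0.52 (95% interval 0.27 to 0.77, adjusted p = 0.997 by limma) and the Day 0 difference 0.30 (0.01 to 0.59). The Day 0 difference had an unadjusted p of 0.041 by limma and did not pass after adjustment. The changes differed by 0.21 (-0.15 to 0.58, or -0.13 to 0.56 with the dog as a block), and by 0.13 to 0.28 with each dog left out.

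ENSCAFG00000002656 was the lower gene with the smallest p after ENSCAFG00000011417, and it was abundant in all dogs. At Day 4 it stood at 359 FPKM in MN05, 552 in MN08, 338 in MN09, 365 in PENN04 and 260.5 in PENN05, and in the valspodar dogs at 88.7 to 292 with a median of 197. Only the valspodar dog PENN03, at 292 FPKM, was above a placebo dog. At Day 0 the placebo dogs had 210.5 to 320.0 FPKM and the valspodar dogs 114 to 259. The difference was -0.99 at Day 4 (95% interval -1.49 to -0.49, adjusted p = 0.997 by limma) and -0.64 at Day 0 (-1.02 to -0.26). The level rose in 4 of 5 placebo and 5 of 9 valspodar dogs. The changes differed by -0.35 (-0.97 to 0.27, or -0.80 to 0.105 with the dog as a block), and by -0.54 to -0.27 with each dog left out.

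The 23 genes with a symbol were taken by the study from these samples for their change from Day 0 to Day 4, so they are no independent sample of genes. None of them had an unadjusted p under 0.05 between arms at Day 4, against 4.15% of all genes. Their differences were higher with valspodar in 13 and lower in 10, with a median of 0.08 beside -0.01 over all genes. They are described below by function, and the intervals are wide because several of them varied more than 10-fold among dogs of an arm.

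**Figure D4:**
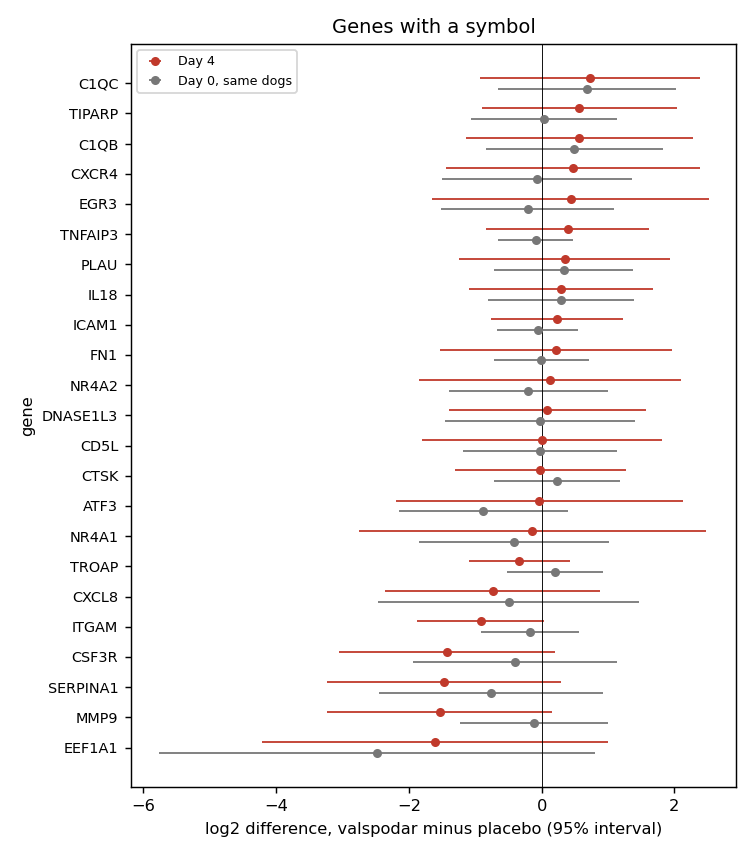
Log2 difference between arms (valspodar minus placebo) with 95% intervals from limma for the 23 genes with a symbol, at Day 4 (red, 9 against 5 dogs) and at Day 0 in the same dogs (grey). Every interval spans 0, and the neutrophil genes ITGAM, CSF3R, SERPINA1 and MMP9 lie lower at Day 4 than at Day 0.

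Neutrophils are short-lived phagocytes that carry the receptor for granulocyte colony-stimulating factor, CSF3R, and the integrin chain ITGAM, and store the gelatinase MMP9 in granules. With SERPINA1, a protease inhibitor made by liver and by myeloid cells, these were the members of the neutrophil list that could be found, 4 of 10. All 4 had lower means with valspodar at Day 4, and 0 of 4 passed the test. Their median difference was -1.45 at Day 4 and -0.29 at Day 0. The summed level of the 4 genes ranged from 4.999 to 332 FPKM with placebo at Day 4 (median 30.5) and from 2.15 to 47.1 with valspodar (median 10.4), so the arms overlapped. The Day 0 medians were in the opposite order, at 5.69 FPKM with placebo and 8.16 with valspodar.

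MMP9 had the largest of these differences. Its Day 4 level was 2.2 FPKM in placebo dog MN05, 7.13 in MN08, 2.37 in MN09, 111 in PENN04 and 0.32 in PENN05, beside 0.33 to 3.43 in the valspodar dogs. PENN04 held 0.87 FPKM at Day 0. The Day 4 difference was -1.54 (95% interval -3.23 to 0.16), and without PENN04 it was -0.52. CSF3R gave -1.42 (-3.05 to 0.21), with 72.8 FPKM in PENN04 and 0.44 to 14.5 in the valspodar dogs, and -0.79 without PENN04. SERPINA1 gave -1.47 (-3.24 to 0.29), or -0.83 without that dog. ITGAM gave -0.92 (-1.87 to 0.04), or -0.43 without it. At Day 0 the differences were -0.12 for MMP9, -0.40 for CSF3R, -0.76 for SERPINA1 and -0.17 for ITGAM. Within the Minnesota dogs, which leave out PENN04 and PENN05, the Day 4 differences were -0.65 for MMP9, -1.04 for CSF3R, -1.14 for SERPINA1 and -0.27 for ITGAM. Without placebo dog PENN05 the 4 differences were larger, at -2.12, -2.07, -2.14 and -1.16. The size of the neutrophil difference at Day 4 thus moved with single placebo dogs, and PENN04 was the library in which 10 genes took 40.6% of the summed FPKM, and that share's part in these values was not tested.

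The macrophage list had 4 of its 13 markers found, 3 with a higher and 1 with a lower mean with valspodar, and 0 passed. C1QB and C1QC encode chains of the first complement component, made mainly by macrophages. At Day 4 C1QC held 66.2 FPKM in MN05, 42.4 in MN08, 24.7 in MN09, 64.6 in PENN04 and 99.01 in PENN05, and 13.1 to 415 in the valspodar dogs with PD05 highest. The difference in C1QC was 0.73 at Day 4 (95% interval -0.93 to 2.38) and 0.68 at Day 0, and in C1QB it was 0.57 (-1.14 to 2.27) and 0.49. The Day 0 intervals (-0.66 to 2.02 for C1QC and -0.84 to 1.82 for C1QB) spanned 0, as at Day 4. CD5L, a secreted protein of tissue macrophages, differed by 0.00 (-1.80 to 1.81), and CTSK, a collagen-degrading cathepsin of osteoclasts and macrophages, by -0.02 (-1.30 to 1.26), beside Day 0 differences of -0.026 and 0.24. The summed level of the 4 genes was 53.9 to 328 FPKM with placebo (median 146.5) and 40.3 to 771 with valspodar (median 284) at Day 4, and the arms overlapped. Before treatment the order of these medians was the opposite, at 109.5 FPKM with placebo and 94.5 with valspodar.

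Immediate early genes are transcription factor genes that respond within minutes to receptor signals or tissue handling. NR4A1 and NR4A2 encode nuclear receptors, EGR3 a zinc finger factor and ATF3 a stress-responsive bZIP factor. All 4 genes were highest in the same 2 valspodar dogs, PENN03 and MN03, at Day 4. NR4A1 stood at 316 FPKM in PENN03 and 109 in MN03, and at 0.88 to 3.01 in the other valspodar dogs. Both dogs had been low before treatment, at 2.40 and 2.89 FPKM. In the placebo dogs at Day 4 NR4A1 was at 12.8 (MN05), 2.92 (MN08), 11.1 (MN09), 1.28 (PENN04) and 13.1 (PENN05).

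The other immediate early genes were high in the same pair of dogs. ATF3 stood at 73 FPKM in MN03 and 48 in PENN03, against 0.18 to 1.69 in the other valspodar dogs and 1.16 to 10.2 with placebo. EGR3 stood at 44.1 and 99.98 FPKM in these dogs, but also at 22.3 in MN06. NR4A2 stood at 79.5 FPKM in MN03 and 124 in PENN03. The differences between arms at Day 4 were -0.14 for NR4A1 (95% interval -2.75 to 2.47), -0.03 for ATF3 (-2.20 to 2.13), 0.44 for EGR3 (-1.65 to 2.52) and 0.13 for NR4A2 (-1.84 to 2.10). At Day 0 they were -0.42, -0.88, -0.21 and -0.20 in the same order, with intervals that spanned 0. Of the 4 genes, 2 were higher and 2 lower at Day 4, none passed, and the median was 0.05. The median summed level was 26.2 FPKM with placebo and 8.16 with valspodar at Day 4, and 14.3 and 8.94 at Day 0.

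Among the NF-kB targets TNFAIP3 was high in the same pair of dogs, as was the chemokine receptor gene CXCR4. TNFAIP3, an inhibitor of NF-kB that is itself an NF-kB target, stood at 105 FPKM in MN03 and 63.1 in PENN03, and at 8.74 to 12.02 in the other valspodar dogs. Placebo dogs held 7.24 to 25.4 FPKM, and the arms differed by 0.39 (95% interval -0.83 to 1.61), or by 0.066 without MN03. At Day 0 the difference was -0.091. ICAM1, an adhesion molecule for leukocytes, was also highest in this pair, at 48.3 FPKM in MN03 and 37 in PENN03, both above the placebo range of 8.86 to 32.0, and differed by 0.23 (-0.77 to 1.22) at Day 4 and by -0.060 at Day 0. CXCL8, the neutrophil chemokine, differed by -0.74 (-2.36 to 0.88) at Day 4 and by -0.50 at Day 0, with 94.8 FPKM in MN03, 6.97 in PENN03 and 0.57 to 7.20 in the other valspodar dogs at Day 4. Placebo dog MN08 held 111 FPKM of CXCL8 at Day 0 and 18.4 at Day 4. CXCR4, the receptor for CXCL12 that keeps B cells in lymphoid tissue, stood at 651 FPKM in MN03 and 317 in PENN03, against 3.54 to 73.6 in the other valspodar dogs and 23.6 to 68.7 with placebo. Its difference was 0.47 (-1.44 to 2.39) at Day 4, or 0.035 without MN03, and -0.07 at Day 0. Of the 3 NF-kB targets found, 2 were higher and 1 lower, and 0 passed.

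**Figure D5:**
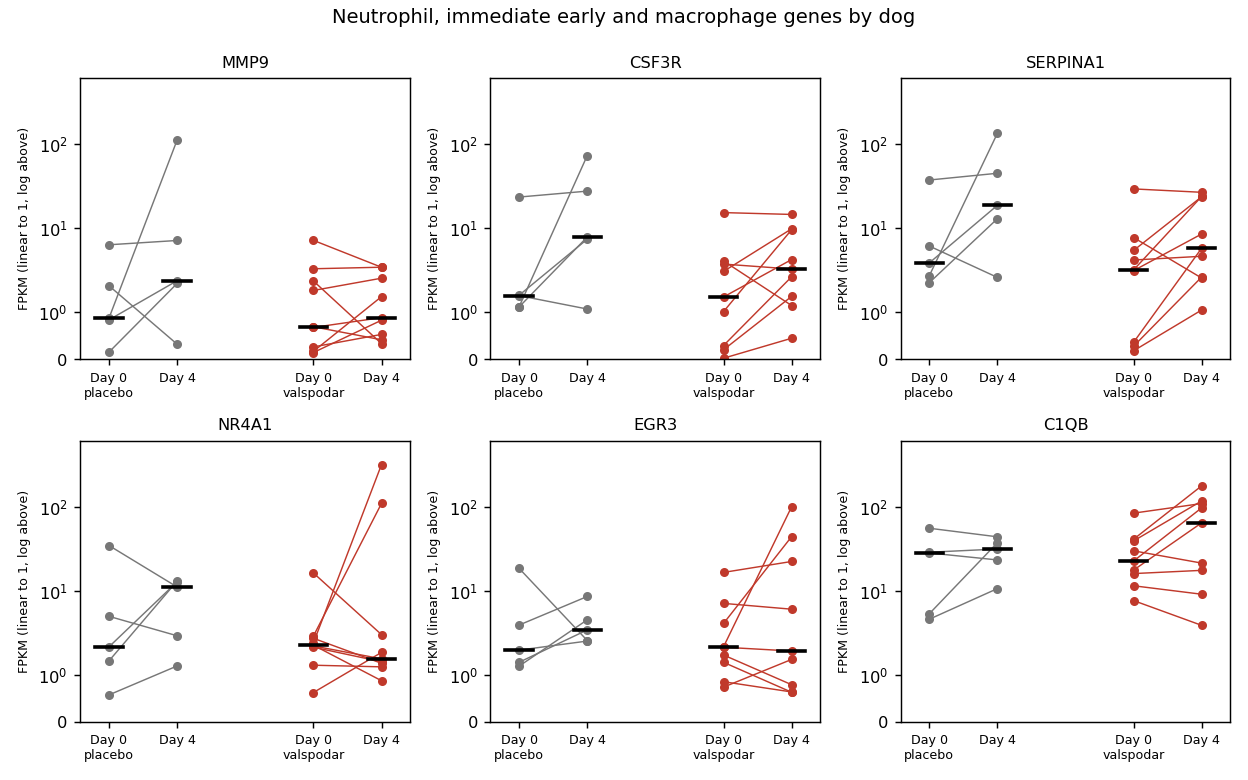
FPKM (axis linear to 1 and logarithmic above) of 3 neutrophil genes (MMP9, CSF3R, SERPINA1), 2 immediate early genes (NR4A1, EGR3) and the macrophage gene C1QB in each dog at Day 0 and Day 4 (placebo, grey, n = 5; valspodar, red, n = 9); lines join the libraries of a dog and black bars are medians. PENN04 is the placebo dog whose MMP9 reached 111 FPKM, and PENN03 and MN03 are the valspodar dogs whose NR4A1 reached 316 and 109 FPKM.

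The remaining genes with a symbol covered matrix, cytokine, translation and cell division. FN1, which encodes the matrix protein fibronectin, stood at 0.99 to 3.65 FPKM in the placebo dogs at Day 4 and at 0.17 to 7.01 in 8 valspodar dogs, with 58.7 in PD03. Its difference of 0.22 (95% interval -1.54 to 1.97) became -0.30 without PD03, and at Day 0 it was -0.0048. PLAU, the urokinase plasminogen activator, differed by 0.35 (-1.24 to 1.94) at Day 4 and by 0.33 at Day 0, with 59.8 FPKM in MN03 at Day 4. IL18, a cytokine of macrophages, differed by 0.29 (-1.10 to 1.68) at Day 4 and by 0.29 at Day 0. DNASE1L3, a secreted DNase of myeloid cells, differed by 0.08 (-1.40 to 1.57) at Day 4 and by -0.024 at Day 0. TIPARP, a target of the aryl hydrocarbon receptor, differed by 0.57 (-0.91 to 2.04) at Day 4 and by 0.035 at Day 0, with 172 FPKM in MN03 and 36.4 in PENN03 against 4.73 to 15.8 in the other valspodar dogs and 5.58 to 30.6 with placebo.

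TROAP, which takes part in the mitotic spindle, was the 1 cell division gene found. It stood at 20.5, 12.6, 13.5, 38.0 and 20.3 FPKM in placebo dogs MN05, MN08, MN09, PENN04 and PENN05 at Day 4 and at 5.98 to 33.5 in the valspodar dogs. It rose in 5 of 5 placebo and 7 of 9 valspodar dogs, and differed by -0.34 at Day 4 (-1.10 to 0.42), or -0.11 without PENN04, and by 0.20 at Day 0. EEF1A1, the translation elongation factor, has near-identical copies in the genome, so its reads may be split among them and its values are uncertain. It was above 70 FPKM in placebo dogs MN05 (207) and PENN04 (78.5) and in valspodar dogs PD03 (76.8) and PD05 (189) at Day 4. It was at 1.32 to 24.7 FPKM in the rest. These 4 dogs had been at 235, 121, 242 and 233 FPKM at Day 0, and placebo dog MN08 went from 817 to 3.44. The arms differed by -1.61 (-4.22 to 0.995) at Day 4, or -0.84 without MN05, and by -2.49 at Day 0.

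Values varied somewhat more among the valspodar dogs than among the placebo dogs at Day 4. The median SD over genes was 0.382 on the log2 scale with valspodar (n = 9) and 0.288 with placebo (n = 5). At Day 0 it was 0.331 and 0.299. This spread is given without a test.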

How the data were processed

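The series analysed here holds 29 lymph node RNA libraries of 15 dogs, of which 14 from Day 4 and the 14 from Day 0 of the same dogs entered the comparisons. The authors trimmed reads with Trimmomatic 0.33, mapped them to canFam 3 with HISAT2 2.0.2, quantified each library with Cuffquant of Cufflinks 2.2.1 and deposited Cuffnorm FPKM values per gene, with replicates not pooled. FPKM values hold no read counts, so no count test was run. The table of the series was used, and all its columns were mapped to samples through their labels. Identifiers were paired with symbols through gene tables of the study, which gave 23 symbols. Those tables were used for names only. Relative depth was read from genes above 0 in few libraries, whose values step by 1 fragment.

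Here log2(FPKM + 1) was fitted with limma 3.58.1 in R 4.3.3 (lmFit, eBayes with a trend) for genes averaging 1 FPKM or more, with Benjamini-Hochberg adjustment over 11677 genes and a threshold of 0.05. Arms were compared at Day 4, at Day 0 in the same dogs, and in their changes over 28 libraries. The study tested with Cuffdiff, which needs mapped reads. Libraries pair by dog: the median correlation, across genes, of deviations from the group mean was 0.504 within dogs (0.199 to 0.678, 14 pairs) and -0.053 between dogs. The fits have no dog term, as in the methods of the study, and the dog block is an alternative. The other alternatives were a pseudocount of 0.1, other filters and scalings, robust eBayes, covariates, subsets of dogs, and each dog left out. The script was tested on simulated data. Members, gene lists and rules were chosen with earlier results of these data known. Named are the gene past the threshold, ENSCAFG00000030181, ENSCAFG00000003082 and ENSCAFG00000002656 by the smallest p, and all genes with a symbol. Of 224 entries in the gene lists, 17 could be matched to an identifier, in the macrophage, neutrophil, stroma, cell division, immediate early and NF-kB lists, and the lists without a match gave no result. Minnesota dogs alone, and genes not at 0 throughout, were chosen after seeing the data. Plots were drawn with matplotlib 3.10.9.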

Additional observations from a re-analysis of the deposited data

Results flagged for a closer look

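Extreme values within an arm at Day 4 were searched in 54 sets, the 27 named genes in each arm, with Dixon's test at the 95% level on the log2(FPKM + 1) scale. Chance marks about 1 set in 20, and 3 were marked. CXCL8 was marked in valspodar dog MN03, at 94.85 FPKM against 7.20 in the next dog. FN1 was marked in valspodar dog PD03, at 58.71 FPKM against 7.01 in the next dog. ENSCAFG00000030181 was marked in placebo dog MN09, which was the lowest at 2.999 FPKM against 7.24 in the next dog. In 0 of the 27 genes did every dog of one arm move one way from Day 0 and every dog of the other arm the opposite way.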

How the results depend on the processing

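The Day 4 comparison called 1 gene, ENSCAFG00000011417, under every alternative run, and from 1 to 1 genes when each dog was left out. The Day 0 comparison called 1 gene except with placebo dog PD04 added, when it called 0 (from 1 to 1 with each dog left out). The difference of the changes called 0 genes throughout (0 to 0), also with the dog as replicate block, where 428 genes instead of 43 were below 0.05 before adjustment and 164 were with no filter on low values and no block. The share of these genes that was higher was 65.1%, against 76.6% with quantile normalization, 40.9% with no filter, 41.6% with the block, 44.8% in the Minnesota dogs and 29.7% without PENN05. The count of genes without overlap at Day 4 was 13 to 18 under other filters and scalings, 16 (without MN06) to 40 (without MN08) with each dog left out, above 1.5 times the full count for 8 dogs (MN02, MN05, MN07, MN08, PENN03, PENN04, PD01 and PD05), and 384 in the Minnesota dogs, where fewer dogs make a lack of overlap easier.

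Among genes with small differences at Day 4 the sign changed as follows, the cause was not tested, and none passed the test. With a pseudocount of 0.1 FN1 gave -0.18, with quantile normalization ATF3 gave 0.063, and with site as a covariate CD5L gave -0.070. The fit with sex as a covariate left out PENN04, whose sex was not given, and gave 0.45 for CTSK and -0.37 for NR4A2. Leaving out PENN04 alone, without sex in the fit, gave 0.47 for CTSK. Without Golden Retrievers CTSK gave 0.092, CD5L -0.47, FN1 -0.60, ATF3 0.81, DNASE1L3 -0.13 and NR4A1 0.83. In the Minnesota dogs CTSK gave 0.89, TROAP 0.055, FN1 -0.027 and ATF3 0.067. Leaving out each dog gave ranges of -0.39 to 0.47 for CTSK, -0.034 to 0.56 for IL18, -0.58 to 0.31 for CD5L, -0.069 to 0.65 for PLAU, -0.30 to 0.41 for FN1 and -0.57 to 0.35 for ATF3. The ranges were -0.055 to 0.69 for EGR3, -0.33 to 0.56 for NR4A2, -0.18 to 0.44 for DNASE1L3 and -0.84 to 0.095 for NR4A1. Ranges without a change of sign but with a move of over 1.5 times were 0.25 to 0.95 for C1QB, 0.45 to 1.06 for C1QC, 0.040 to 0.48 for ICAM1, 0.15 to 0.93 for TIPARP, 0.035 to 0.93 for CXCR4, 0.066 to 0.63 for TNFAIP3, -1.25 to -0.48 for CXCL8, -0.49 to -0.11 for TROAP and -2.23 to -0.84 for EEF1A1. The Day 0 difference of ENSCAFG00000030181 was -0.17 with sex as a covariate and PENN04 left out, and -0.23 without Golden Retrievers. It was -0.0083 in the Minnesota dogs and -0.089 to 0.18 with each dog left out. The difference of the changes of ENSCAFG00000011417 was -0.072 to 0.090 with each dog left out.

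With 9 and 5 dogs, small differences were not detectable, and each dog gave 1 library per day, so spread between biopsies of a node was not measured. Site and breed were unevenly spread over the arms. Purdue dogs and dogs labelled Golden Retriever were in the valspodar group only at Day 4, so their part cannot be told apart from treatment for those dogs. The breed of placebo dog PENN04 was not given. The library of MN02, at 0.288 of the median depth, has the least certain low values, and without it the Day 4 count was 1.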
